A study of Mus musculus with 9 samples.

Results

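The 39 genes described here encode the glutamate receptors of excitatory synapses, the scaffolds that hold them, the adhesion molecules that span the cleft, the transporters that fill vesicles with glutamate, and the kinase CaMKII. They were taken as a fixed list of gene symbols, of 40213 genes in the count files, and all 39 were found in each of the 9 files and were among the 16106 genes tested. The list holds 4 AMPA, 6 NMDA and 5 kainate receptor subunits, 6 metabotropic receptors, 4 Dlg, 3 Shank and 3 Homer scaffolds, 4 neurexins and neuroligins, 2 vesicular transporters and 2 CaMKII subunits. None was left out by the filter on low counts, and the fewest counts of any of them in a library was 106.

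Total RNA of the ventral hippocampus was sequenced from 9 male mice, wild-type C57BL/6J animals that were 8 weeks of age at housing, with 3 mice in each of 3 groups. SUS_LE mice were held immobile in a tube for 2 hours a day on 14 days, were classed as stress-susceptible, and then ran on a treadmill at low intensity for 2 weeks. SUS mice had the same restraint and the same class and then stayed sedentary. SED mice were sedentary and untreated. Neither the scoring of susceptibility nor the time of tissue collection is given in the labels, and restraint without the susceptible class is not among the groups. Comparing SUS with SED asks what goes with restraint and susceptibility, comparing SUS_LE with SUS what goes with exercise after it, and comparing SUS_LE with SED how far exercised mice stand from untreated ones.

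As background, glutamate released from vesicles opens AMPA receptors, which carry most of the fast excitatory current, and NMDA receptors, which admit calcium when the membrane is already depolarized. Calcium activates CaMKII, which binds NMDA receptors and helps to set the number of AMPA receptors at the synapse. Under the membrane, PSD-95 and its relatives tie the receptors to Shank and Homer proteins, and Homer links Shank to the metabotropic receptor mGluR5.

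The 250 bases before the start of 4 of these genes, 1 from each role the results return to, are shown from RefSeq on build GRCm38.p6. Grin1 encodes the obligatory NMDA receptor subunit (chr2:25319188-25319437, minus strand, 58.8% G and C), Slc17a7 the main vesicular glutamate transporter (chr7:45163671-45163920, plus strand, 61.2% G and C), Dlg4 the scaffold PSD-95 (chr11:70016953-70017202, plus strand, 47.2% G and C) and Homer1 the main Homer scaffold (chr13:93303507-93303756, plus strand, 62.4% G and C). Each window is written 5′ to 3′ on the gene's own strand. Capitals mark matches, on either strand, to the GC box GGGCGG, which Sp-family factors can bind, or to TGACG, the core of the cAMP response element.
Grin1: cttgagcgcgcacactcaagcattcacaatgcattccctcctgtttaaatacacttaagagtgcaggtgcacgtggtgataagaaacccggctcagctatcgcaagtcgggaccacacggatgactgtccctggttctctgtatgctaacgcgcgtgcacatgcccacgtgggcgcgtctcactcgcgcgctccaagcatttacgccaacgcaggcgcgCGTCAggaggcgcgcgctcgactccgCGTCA
Slc17a7: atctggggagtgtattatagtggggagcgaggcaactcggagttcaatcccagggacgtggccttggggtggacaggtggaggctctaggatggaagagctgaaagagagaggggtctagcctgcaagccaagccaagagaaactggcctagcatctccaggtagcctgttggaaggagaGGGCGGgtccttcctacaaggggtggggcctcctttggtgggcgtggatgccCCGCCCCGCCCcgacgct
Dlg4: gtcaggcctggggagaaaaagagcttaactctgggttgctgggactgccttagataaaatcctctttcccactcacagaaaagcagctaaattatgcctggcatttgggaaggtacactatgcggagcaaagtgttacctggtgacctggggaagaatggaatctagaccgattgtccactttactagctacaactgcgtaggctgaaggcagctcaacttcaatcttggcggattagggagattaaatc
Homer1: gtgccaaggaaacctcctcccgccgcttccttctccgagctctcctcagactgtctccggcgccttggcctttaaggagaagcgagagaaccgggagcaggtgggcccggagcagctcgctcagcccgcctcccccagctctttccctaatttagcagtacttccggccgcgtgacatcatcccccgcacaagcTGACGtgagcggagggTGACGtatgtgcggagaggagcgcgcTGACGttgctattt
The Slc17a7 window holds 3 GC boxes, of which a pair overlap by 1 base, the Homer1 window 3 TGACG cores and the Grin1 window 2 TGACG cores. The Dlg4 window holds neither motif. Of the 39 genes, 26 have at least 1 window in the RefSeq table, 43 windows in all. A GC box was found in 19 of these 43 windows (44.2%), against 32.7% of all 32851 windows of the same length, and TGACG in 6 of 43 (14%), against 17.8%. These matches describe letters in the reference and were not measured in the mice.

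Library totals ran from 14172344 to 15582304 counts, and among the 39 genes the fewest counts in a library were 40038 for Camk2a and 106 for Grm8. Markers of the labelled tissue were present in all 9 libraries: the dentate granule gene Prox1 at 74.3 to 118 counts per 1000000 (CPM, scaled by TMM factors), the CA1 gene Wfs1 at 71.3 to 147.0 and the neuronal gene Rbfox3 at 208 to 290.5. A set of 3 libraries stood apart in choroid plexus RNA: the transthyretin gene Ttr was at 83.2 and 59.6 CPM in SUS_LE 1 and SUS_LE 3 and at 27.4 CPM in SUS 1, against 1509 to 6085 CPM in the other 6 libraries. SUS 1 also differed most from its own group, with a chi-square per degree of freedom of 11.5 and 15.8 against SUS 2 and SUS 3, while all other pairs within a group lay between 2.82 and 7.21. The genes at an unadjusted p under 0.05 are given below without SUS 1, and where it matters without all 3 of these libraries. Leaving out all 3 keeps SUS_LE 2 as the only exercised library, so that setting is given by effect size alone.

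Levels of different genes were compared per length, as CPM per kilobase of the longest annotated transcript. Camk2a, the alpha subunit of CaMKII, had the highest level, 565 to 717 CPM per kilobase over the 9 libraries, and made up 76.4% of the summed level of the 2 CaMKII genes. Slc17a7 (VGLUT1) made up 98.0% of the level of the 2 vesicular transporters, and Slc17a6 (VGLUT2) 1.96%. Among AMPA receptor subunits Gria1 held 51.5%, Gria2 29.9%, Gria3 13.9% and Gria4 4.71% of the summed level. Within their families, Grik5 held 61.8%, Grm5 46.9%, Dlg4 51.4%, Shank1 60.1% and Homer1 59.9%. All of these genes also came first in their family when the median transcript length was used instead, with 85.0% for Camk2a, 42.1% for Gria1, 46.3% for Grik5 and 84.0% for Dlg4. The order of the NMDA receptor subunits depended on that choice: Grin1 held 51.4% and Grin2b 27.4% with the longest transcripts, and 10.6% and 80.6% with the median ones. The first place among neurexins and neuroligins depended on it too, with Nrxn2 at 38.2% by the longest and 28.4% by the median length, and Nrxn3 at 32.1% and 39.6%. The median length was far below the longest for Dlg4 (931 against 6326 bases), Camk2a (1356.5 against 4970) and Grin2b (1582 against 24060). The high shares of these genes by median length rest on such short annotated transcripts, and which transcripts were expressed was not tested.

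**Figure D1:**
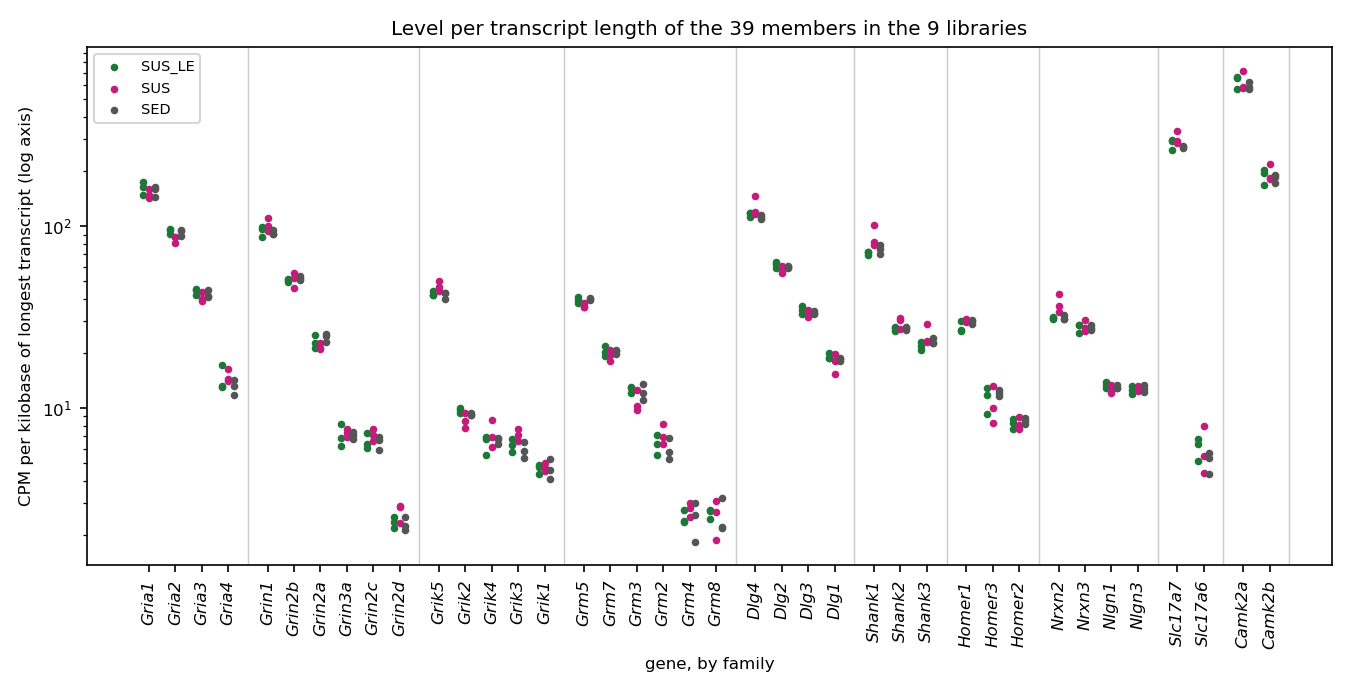
Level of each of the 39 genes in CPM per kilobase of its longest transcript (log axis), by family; each point is 1 library, with SUS_LE, SUS and SED side by side. Camk2a is highest at 565 to 717 CPM per kilobase.

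The levels varied little between mice. The highest of the 9 libraries was 1.12 times the lowest for the neuroligin gene Nlgn3 and 1.85 times for Slc17a6, with a median ratio of 1.28, and the ratio was under 1.5 for 33 of the 39 genes. The other 5 genes above 1.5 were Grm8, Grm4, Homer3, Grik4 and Grm2. SUS 1 was the highest library for 17 genes and the lowest for 5, and SUS 3 was the highest for none.

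**Figure D2:**
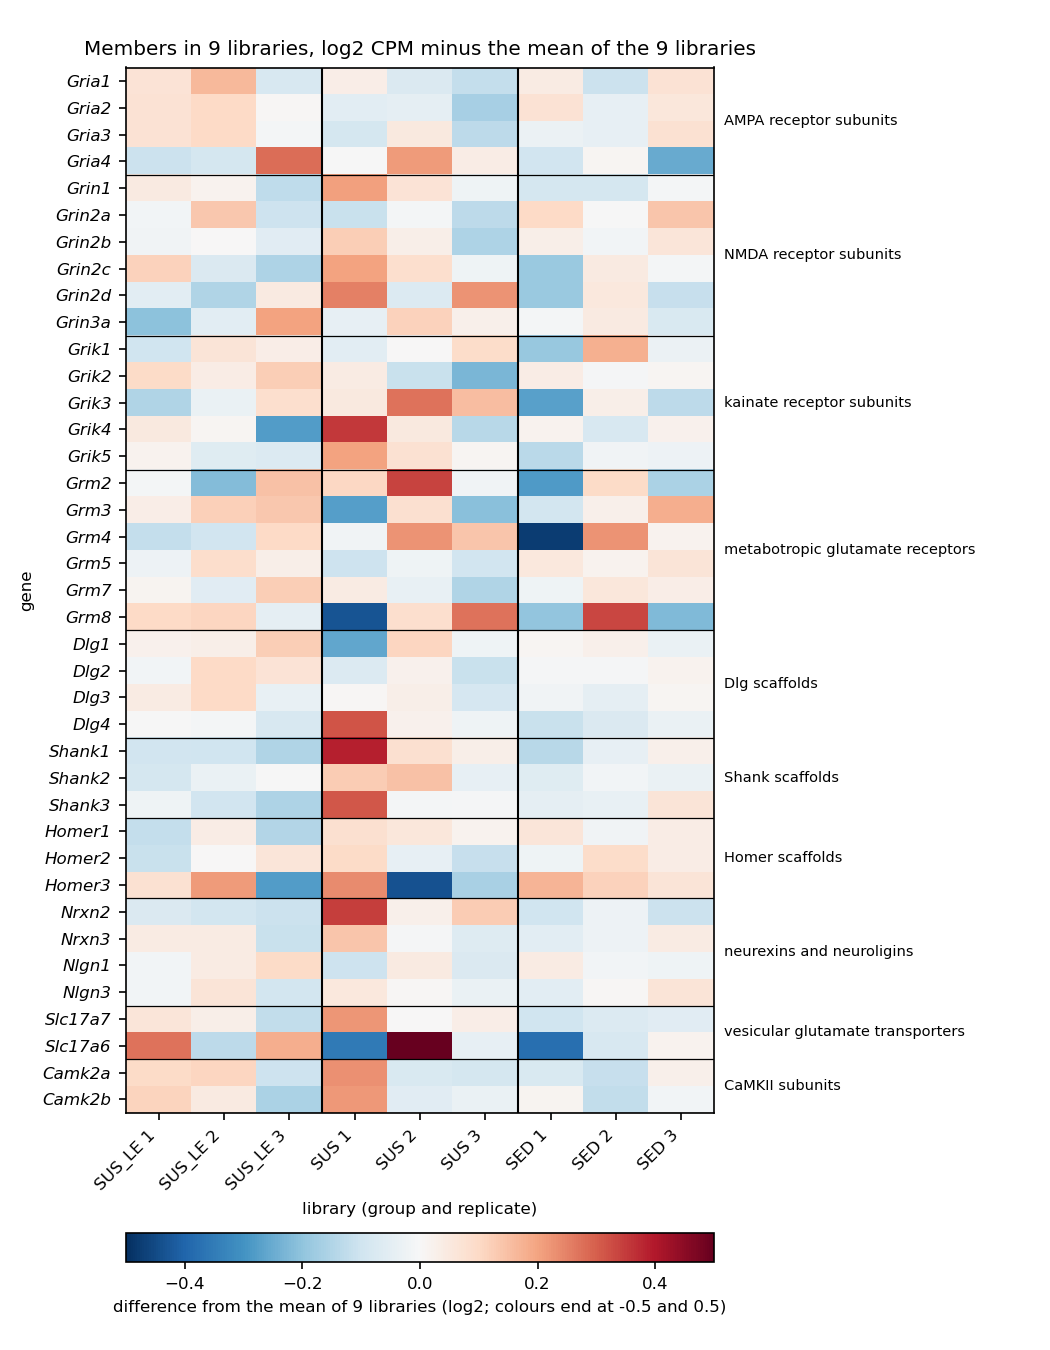
Log2 CPM of each of the 39 genes in each library minus its mean over the 9 libraries, with libraries of SUS_LE, SUS and SED from left to right and genes by family. SUS 1 is the highest library for Shank1, Shank3, Dlg4, Nrxn2 and Grik4, and the lowest for Dlg1, Grm3 and Grm8.

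In SUS against SED mice, no glutamatergic synapse gene passed an adjusted p of 0.05 in edgeR's quasi-likelihood test, 0 of 39, where 0% of all 16106 genes did. At an unadjusted p under 0.05 there were 10 of 39 genes, against 13.1% of all genes tested: 8 were higher in SUS mice, against 6.83%, and 2 were lower, against 6.26%. The 8 were Nrxn2, Grik3, Grik5, Shank1, Dlg4, Slc17a7, Grin1 and Shank2, and the 2 were Grin2a and Grm5. Groups did not overlap for 9 genes (18.3% of all genes), 6 higher in SUS (9.72%) and 3 lower (8.56%). The log2 fold changes of the 39 genes ran from -0.21 (Homer3) to 0.28 (Grik3), with a median of 0.04 beside 0.00 for all genes, and 25 of 39 were above 0, against 49.9%. Without SUS 1 the median of the 39 was 0.00 (just below 0), and without SUS 1, SUS_LE 1 and SUS_LE 3 it was -0.01. For 36 of the 39 the 95% interval lay within 0.5 of no change on the log2 scale. The tissue was assayed in bulk, so fewer cells of a type and less RNA per cell cannot be told apart.

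By other tools, limma (voom with quality weights, which can weight libraries unequally) called none of the 39 (0% of all genes). It had 14 at an unadjusted p under 0.05 (9 higher and 5 lower, against 11.9% of all genes). DESeq2 called Nrxn2 with an adjusted p of 0.0272, as 1 of 168 genes called (3.25% of those with an adjusted p, which 31 of the 39 had). Without its independent filtering it called no gene of the 39, against 0.329% of all genes. The adjusted p of Nrxn2 ran from 0.00746 to 0.488 over the alternatives tried. When 1 SUS or SED library was left out, the count of 10 was 6 without SUS 1 (2 higher and 4 lower, against 9.10% of all genes), 4 without SED 1 (9.05%), 7 without SED 3 (8.92%), 10 without SED 2 (11.9%), 11 without SUS 3 (16.3%) and 12 without SUS 2 (14.5%).

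In SUS_LE against SUS mice, 0 of 39 genes again passed the adjusted p of 0.05 in edgeR (0% of all genes), and 10 of 39 had an unadjusted p under 0.05, against 13.7%. Here 3 were higher in SUS_LE mice (Grik2, Gria2 and Grm3, against 7.20%) and 7 were lower (Nrxn2, Shank1, Shank3, Shank2, Grik5, Grik3 and Homer1, against 6.49%). Groups did not overlap for 4 genes, against 17.0%: Gria2 was higher in SUS_LE (8.61%), and Shank1, Shank3 and Nrxn2 were lower (8.38%). Log2 fold changes ran from -0.29 (Shank1) to 0.22 (Grm3), with a median of -0.03 beside 0.00 for all genes, and 17 of 39 were above 0, against 50.3%. Without SUS 1, SUS_LE 1 and SUS_LE 3 the median of the 39 was 0.02. This comparison and SUS against SED use the same 3 SUS libraries, so a value that is high or low in those mice enters both with opposite sign.

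DESeq2 called Shank1 (adjusted p = 0.0128) and Nrxn2 (adjusted p = 0.0162) lower in SUS_LE, among 185 genes called (3.57% of those with an adjusted p, which 31 of the 39 had). limma called none of the 39 (0% of all genes) and had 6 genes at an unadjusted p under 0.05 (2 higher and 4 lower, against 11.9% of all genes). Over the alternatives tried the adjusted p ran from 0.00273 to 0.577 for Shank1 and from 0.00218 to 0.495 for Nrxn2. The count of 10 genes became 4 without SUS_LE 2 (10.5% of all genes), and 7 without SUS 1 (12.0%), of which 4 were higher and 3 lower.

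In SUS_LE against SED mice no gene of the 39 had an unadjusted p under 0.05, against 6.64% of all genes (2.79% higher and 3.86% lower in SUS_LE), and none had groups that did not overlap, against 16.2% (7.54% higher and 8.64% lower). edgeR, limma and DESeq2 all called 0 of 39 at an adjusted p of 0.05, where edgeR and limma called 0% of all genes and DESeq2 0.0994%. The smallest p was that of Homer1, with a log2 fold change of -0.10 (SE 0.05), an unadjusted p of 0.0831 and an edgeR adjusted p of 0.775. For 36 of 39 genes the log2 fold change lay within 0.1 of no change, and for 37 the 95% interval lay within 0.5. The median was 0.03, beside 0.01 for all genes, and 27 of 39 values were above 0, against 52.9%. Without SED 1 the median of the 39 was -0.01, and with the choroid plexus score as a covariate it was -0.03. The count of 0 genes at an unadjusted p under 0.05 did not hold in every setting. With that covariate it was 4 (1 higher and 3 lower, against 6.61% of all genes), and without SUS_LE 2 it was 2 (0 higher and 2 lower, against 6.28%). A test for any difference among the 3 groups gave 0 of 39 genes at an adjusted p of 0.05 (0% of all genes) and 7 of 39 at an unadjusted p under 0.05, against 13.5%: Nrxn2, Shank1, Grik3, Grik5, Grik2, Grin2a and Dlg4.

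**Figure D3:**
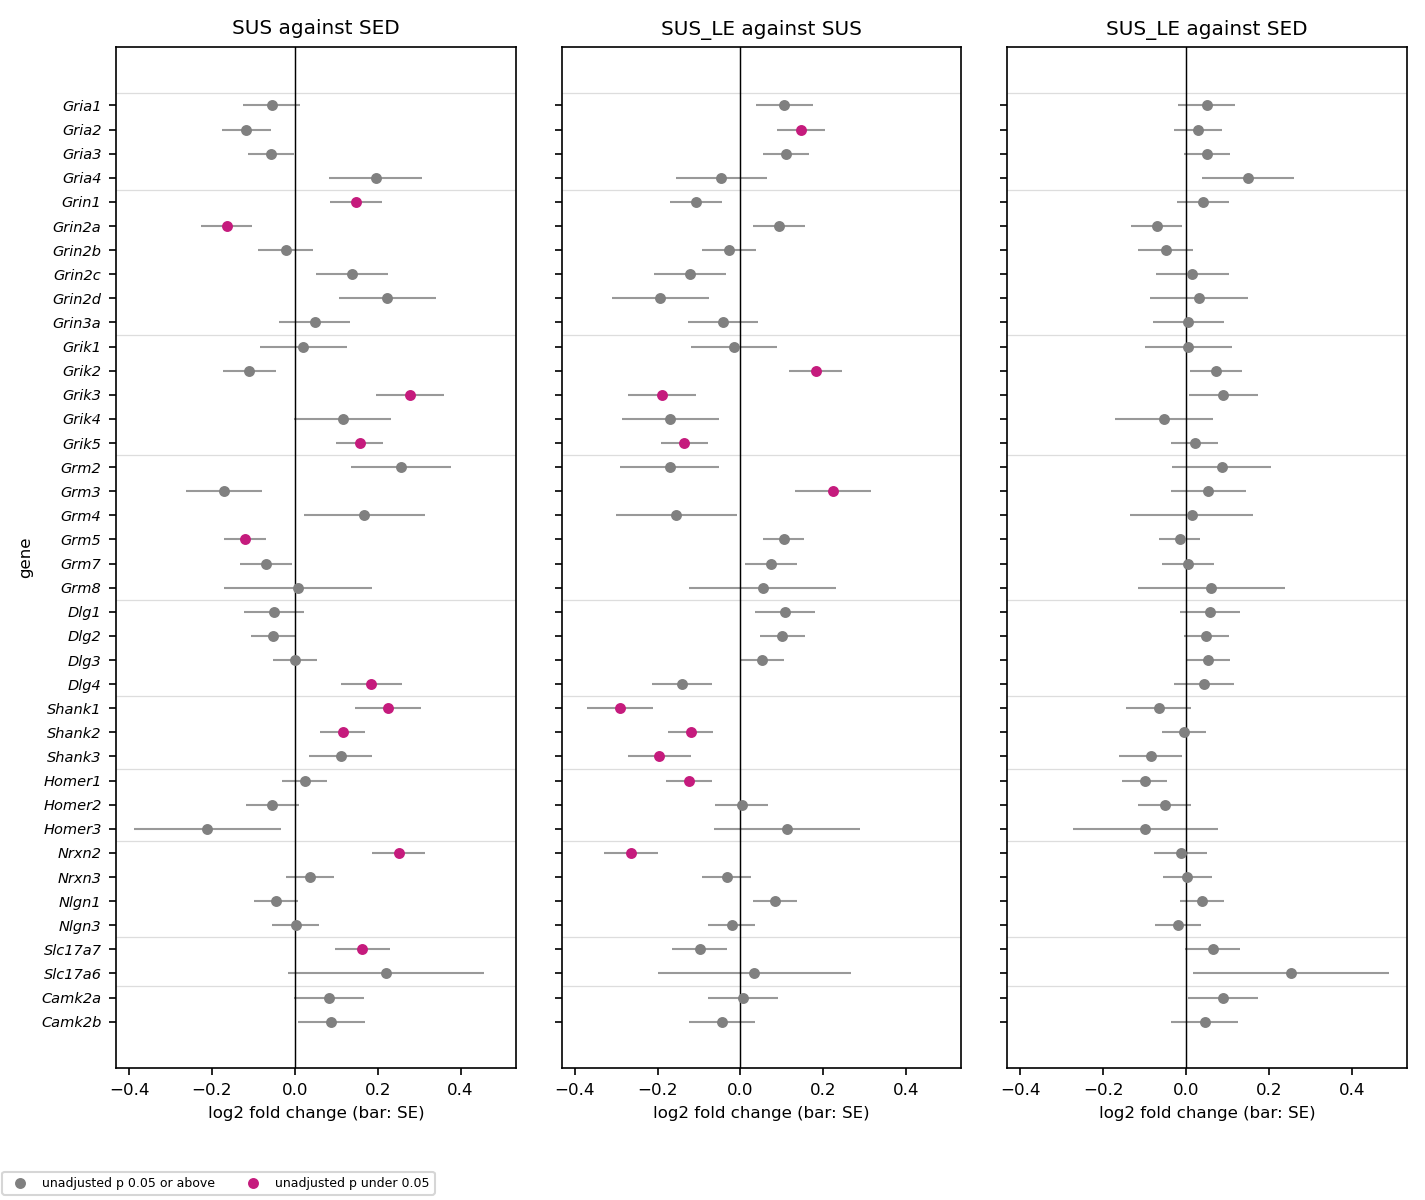
Log2 fold change of each of the 39 genes in the 3 comparisons, with bars of 1 standard error; filled colour marks an unadjusted p under 0.05. Points of SUS against SED reach from -0.21 to 0.28 and those of SUS_LE against SUS from -0.29 to 0.22, while 36 of 39 points of SUS_LE against SED lie within 0.1 of 0.

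The AMPA receptor subunits come first. Gria2, the AMPA receptor subunit whose edited form keeps calcium out, had 986, 1006 and 943 CPM in the SUS_LE libraries, 906, 909 and 837 CPM in the SUS libraries and 988, 912 and 976 CPM in the SED libraries. All 3 SUS values lay below all of the others, though SUS 2 and SED 2 differed by less than the spread within either group. Its log2 fold change was -0.12 (SE 0.06, unadjusted p = 0.0603) in SUS against SED and 0.15 (SE 0.06, unadjusted p = 0.0220, edgeR adjusted p = 0.283) in SUS_LE against SUS. Gria1, the AMPA receptor subunit best known for its insertion into synapses during potentiation, had 906, 969 and 819 CPM in the SUS_LE libraries, 885, 823 and 797 CPM in the SUS libraries and 889.97, 804 and 909 CPM in the SED libraries. The 3 groups overlapped, and its log2 fold changes were -0.06 and 0.11 (SE 0.07 each) in the same comparisons. Gria3 and Gria4, the other AMPA receptor subunits, had log2 fold changes of -0.06 and 0.20 in SUS against SED and 0.11 and -0.05 in SUS_LE against SUS, all with unadjusted p above 0.05.

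Among NMDA receptor subunits, Grin1, the subunit that every NMDA receptor contains, had 422, 415 and 375 CPM in the SUS_LE libraries, 473, 429 and 404 CPM in the SUS libraries and 385, 386 and 407 CPM in the SED libraries. SUS 1 was highest, and SUS 3 lay below SED 3, so SUS and SED overlapped. The log2 fold change was 0.15 (SE 0.06, unadjusted p = 0.0278, edgeR adjusted p = 0.311) in SUS against SED. Grin2a, the glutamate-binding subunit typical of mature synapses, had 335, 371 and 315 CPM in the SUS_LE libraries, 313, 335 and 309 CPM in the SUS libraries and 363, 337 and 373 CPM in the SED libraries. The SUS values lay below all SED values and within the SUS_LE range or under it, with a log2 fold change of -0.16 (SE 0.06, unadjusted p = 0.0153, edgeR adjusted p = 0.262) against SED. Grin2b, the subunit that predominates early in development, had 1213, 1229 and 1183 CPM in the SUS_LE libraries, 1338, 1255 and 1103 CPM in the SUS libraries and 1253, 1217 and 1281 CPM in the SED libraries. Here SUS held both the highest and the lowest of the 9 values, and the log2 fold changes were -0.02 and -0.03 (SE 0.07 each) in SUS against SED and SUS_LE against SUS. The slower subunits Grin2c and Grin2d and the glycine-binding Grin3a had log2 fold changes of 0.14, 0.22 and 0.05 in SUS against SED and of -0.12, -0.19 and -0.04 in SUS_LE against SUS, with no unadjusted p under 0.05.

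Kainate receptors gave 3 of the named genes. Grik3, the low-affinity subunit GluK3, had 51.8, 56.2 and 61.00 CPM in the SUS_LE libraries, 59.4, 69.3 and 63.9 CPM in the SUS libraries and 47.7, 58.7 and 52.4 CPM in the SED libraries. All SUS values exceeded all SED values, while SUS_LE 3 exceeded SUS 1. The log2 fold change was 0.28 in SUS against SED (1.21-fold, SE 0.08, unadjusted p = 0.00336, edgeR adjusted p = 0.181) and -0.19 in SUS_LE against SUS (SE 0.08, unadjusted p = 0.0332). Grik5, which encodes the high-affinity subunit GluK5 that needs a low-affinity partner, had 167, 158 and 157 CPM in the SUS_LE libraries, 189, 173 and 166 CPM in the SUS libraries and 149.98, 162 and 162 CPM in the SED libraries. SUS lay above SED throughout and overlapped SUS_LE by 1 library, with log2 fold changes of 0.16 (SE 0.06, edgeR adjusted p = 0.246) against SED and -0.14 (SE 0.06, edgeR adjusted p = 0.299) for SUS_LE against SUS. Grik2, which encodes GluK2, stood the other way, with 92.2, 88.5 and 93.9 CPM in the SUS_LE libraries, 88.7, 79.9 and 73.5 CPM in the SUS libraries and 88.5, 86.00 and 86.8 CPM in the SED libraries. SUS 2 and SUS 3 were the lowest of the 9, SUS 1 lay among the others, and the log2 fold change of SUS_LE against SUS was 0.18 (SE 0.06, unadjusted p = 0.00993, edgeR adjusted p = 0.209), or 0.11 without SUS 3. Grik1 and Grik4, the remaining low- and high-affinity subunits, had log2 fold changes of 0.02 and 0.12 in SUS against SED and -0.02 and -0.17 in SUS_LE against SUS.

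The metabotropic receptors signal through G proteins. Grm5, the postsynaptic mGluR5 coupled to calcium release, had 305, 330.1 and 317 CPM in the SUS_LE libraries, 289, 306 and 291 CPM in the SUS libraries and 322, 315 and 325 CPM in the SED libraries. SUS lay below SED in every library and overlapped SUS_LE, with a log2 fold change of -0.12 (SE 0.05, unadjusted p = 0.0269, edgeR adjusted p = 0.308) against SED and 0.10 (SE 0.05, unadjusted p = 0.0504) for SUS_LE against SUS. Grm3, an inhibitory receptor found on astrocytes as well as neurons, had 37.1, 39.4 and 39.8 CPM in the SUS_LE libraries, 29.97, 38.3 and 31.3 CPM in the SUS libraries and 33.98, 36.9 and 41.2 CPM in the SED libraries. SUS 1 and SUS 3 were the lowest libraries and SUS 2 lay with the others, and the log2 fold change of SUS_LE against SUS was 0.22 (SE 0.09, unadjusted p = 0.0247, edgeR adjusted p = 0.291). Grm2, Grm4, Grm7 and Grm8, which mostly restrain release from presynaptic terminals, had log2 fold changes from -0.07 to 0.26 in SUS against SED and from -0.17 to 0.07 in SUS_LE against SUS, none at an unadjusted p under 0.05.

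Among the scaffolds, Shank1, which joins the receptor complexes to the actin cytoskeleton, had 712, 712 and 686 CPM in the SUS_LE libraries, 998, 806 and 778 CPM in the SUS libraries and 693, 741 and 777 CPM in the SED libraries. SUS 1 stood far above the rest, and SUS 3 and SED 3 were nearly equal. Its log2 fold change was 0.22 in SUS against SED (SE 0.08, unadjusted p = 0.0127, edgeR adjusted p = 0.246) and -0.29 in SUS_LE against SUS (0.82-fold, SE 0.08, unadjusted p = 0.00224, edgeR adjusted p = 0.146). Shank2, a relative of Shank1, had 238, 247 and 252 CPM in the SUS_LE libraries, 276, 279.96 and 245 CPM in the SUS libraries and 242, 250.2 and 247 CPM in the SED libraries. SUS 1 and SUS 2 were highest and SUS 3 lay within both other groups, with log2 fold changes of 0.12 and -0.12 (SE 0.05 each) in SUS against SED and SUS_LE against SUS. Shank3, whose loss in people causes Phelan-McDermid syndrome, had 169.7, 161 and 155 CPM in the SUS_LE libraries, 213, 171 and 172 CPM in the SUS libraries and 167, 168 and 179.9 CPM in the SED libraries. SUS 1 was again highest, and SUS_LE lay below SUS in every library, with a log2 fold change of -0.20 (SE 0.08, unadjusted p = 0.0223, edgeR adjusted p = 0.284), beside 0.11 (unadjusted p = 0.168) in SUS against SED.

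Dlg4, which encodes PSD-95, had 748, 744 and 707 CPM in the SUS_LE libraries, 929, 759 and 737 CPM in the SUS libraries and 692, 711 and 731 CPM in the SED libraries. SUS lay above SED in every library and SUS 1 above all others, with a log2 fold change of 0.18 (SE 0.07, unadjusted p = 0.0206, edgeR adjusted p = 0.285) against SED and -0.14 (SE 0.07, unadjusted p = 0.0678) for SUS_LE against SUS. Its relatives Dlg1, Dlg2 and Dlg3 had log2 fold changes between -0.05 and 0.00 in SUS against SED and between 0.05 and 0.11 in SUS_LE against SUS. Homer1, which yields a long scaffold and a short form induced by activity, had 154, 172 and 151 CPM in the SUS_LE libraries, 177, 174 and 169 CPM in the SUS libraries and 175, 165 and 172 CPM in the SED libraries. SUS_LE 1 and SUS_LE 3 were the lowest of the 9 libraries and SUS_LE 2 lay among the SUS values, with a log2 fold change of -0.12 (SE 0.05, unadjusted p = 0.0347, edgeR adjusted p = 0.327) for SUS_LE against SUS and 0.02 (SE 0.05) for SUS against SED. Without SUS 1, SUS_LE 1 and SUS_LE 3, its value in SUS_LE against SUS was 0.01, on the other side of 0. That value rests on SUS_LE 2 as the only exercised library. Counts per gene do not separate the long and short forms. Homer2 and Homer3 had log2 fold changes of -0.05 and -0.21 in SUS against SED and 0.00 and 0.11 in SUS_LE against SUS.

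Nrxn2, a presynaptic adhesion molecule that binds neuroligins across the cleft, had the smallest p of the 39 genes in SUS against SED, in SUS_LE against SUS and in the test for any difference. It had 211, 208 and 206 CPM in the SUS_LE libraries, 282, 226 and 242 CPM in the SUS libraries and 206, 218 and 206 CPM in the SED libraries. Each SUS library was higher than all 6 others, while SUS_LE and SED were intermingled. The means were 208 ± 2.44, 249.8 ± 28.8 and 209.9 ± 6.67 CPM in SUS_LE, SUS and SED (SD, n = 3 each). Its log2 fold change was 0.25 in SUS against SED (1.19-fold, SE 0.06, unadjusted p = 0.00113, edgeR adjusted p = 0.148), -0.26 in SUS_LE against SUS (0.83-fold, SE 0.06, unadjusted p = 0.000715, edgeR adjusted p = 0.116) and -0.01 in SUS_LE against SED (95% interval -0.15 to 0.12). By unadjusted p it ranked 123rd and 95th of the 16106 genes in SUS against SED and SUS_LE against SUS. Nrxn3 and the postsynaptic neuroligins Nlgn1 and Nlgn3 had log2 fold changes within 0.1 of no change in both comparisons, from -0.04 to 0.08.

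**Figure D4:**
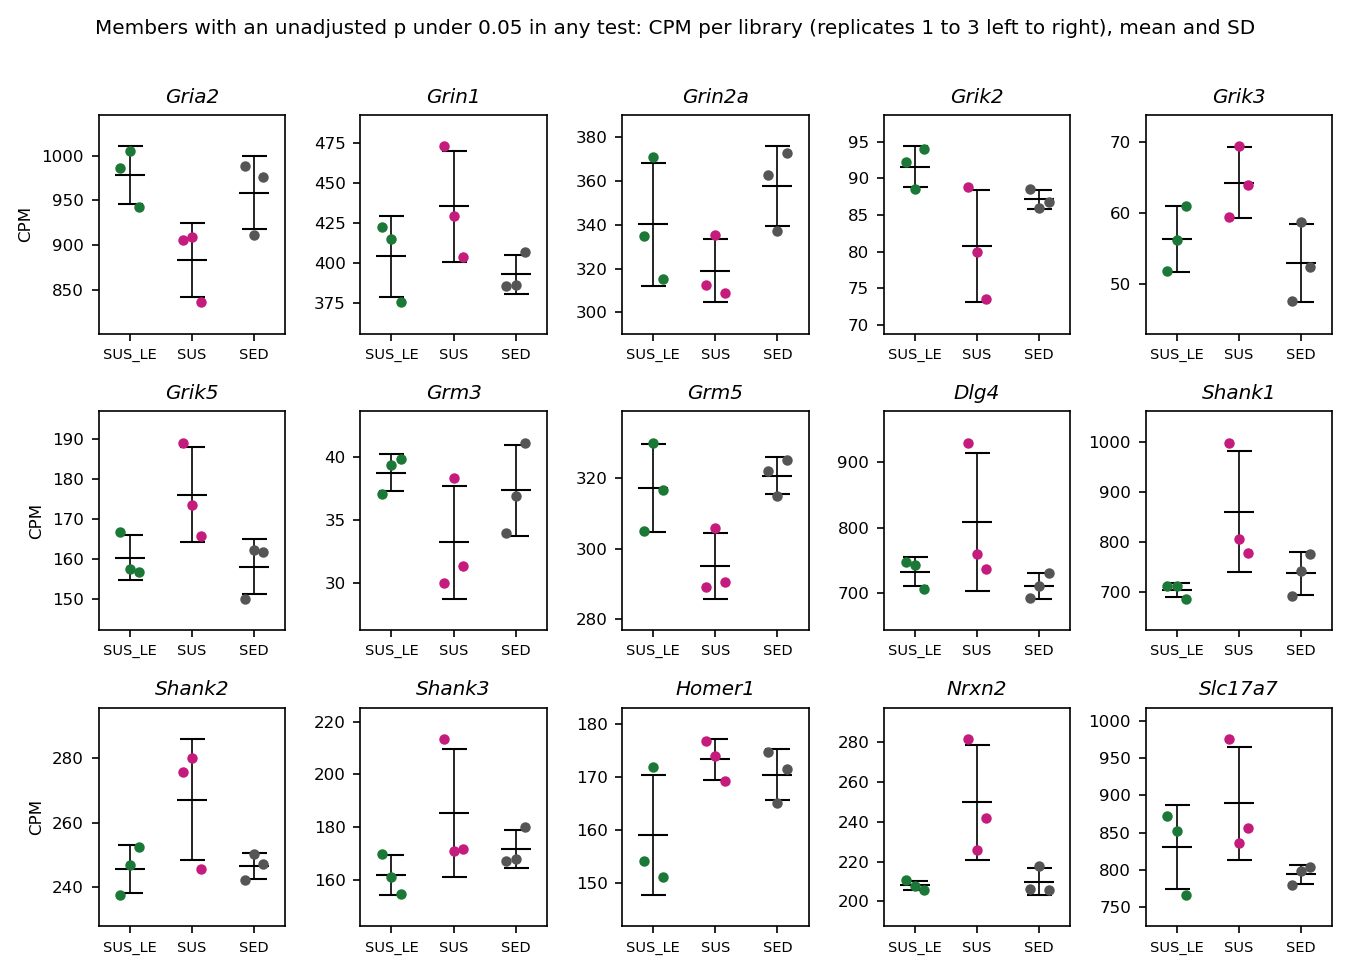
CPM per library of the 15 genes with an unadjusted p under 0.05 in any test, with SUS_LE, SUS and SED from left to right in each panel and the group mean and SD drawn; the vertical axes do not start at 0. In the Nrxn2 panel the SUS points, 226 to 282 CPM, lie above all others, and in the Shank1, Shank3 and Dlg4 panels SUS 1 is a high point on its own.

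On the presynaptic side, Slc17a7, whose product VGLUT1 fills vesicles with glutamate, had 872, 853 and 767 CPM in the SUS_LE libraries, 975, 836 and 856 CPM in the SUS libraries and 780.3, 798 and 805 CPM in the SED libraries. SUS lay above SED in every library and overlapped SUS_LE, with a log2 fold change of 0.16 (SE 0.07, unadjusted p = 0.0235, edgeR adjusted p = 0.296) against SED. Slc17a6, which encodes VGLUT2 and in brain is richest in subcortical neurons, had 28.1, 21.2 and 26.4 CPM in the SUS_LE libraries, 18.2, 33.2 and 22.6 CPM in the SUS libraries and 17.9, 22.01 and 23.6 CPM in the SED libraries. SUS held the highest value and nearly the lowest, and the SE of its log2 fold changes was 0.24, 0.23 and 0.24 in the 3 comparisons, the largest of the 39. Camk2a had 3249, 3272 and 2828 CPM in the SUS_LE libraries, 3566, 2886 and 2858 CPM in the SUS libraries and 2886, 2806 and 3096 CPM in the SED libraries. Camk2b, the subunit that anchors CaMKII to actin, had 819.9, 785 and 679.9 CPM in the SUS_LE libraries, 882, 730.4 and 743 CPM in the SUS libraries and 767, 696 and 752 CPM in the SED libraries. Both CaMKII genes overlapped in all 3 comparisons, with SUS 1 the highest library, and their log2 fold changes were 0.08 (95% interval -0.10 to 0.26) and 0.09 (-0.08 to 0.26) in SUS against SED and 0.01 and -0.04 in SUS_LE against SUS.

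Ratios within a library do not depend on scaling. A trend in G and C content by library need not cancel where the 2 genes differ in it. Transcripts of Slc17a6 and Slc17a7 held 42.9% and 58.5% G and C, and those of Gria1 and Gria2 48.5% and 36.8%. The part of this trend in the ratios was not tested. The log2 ratio of Grin2a to Grin2b counts, which tracks the exchange of NMDA receptor subunits during maturation, was -1.86, -1.73 and -1.91 in SUS_LE, -2.10, -1.90 and -1.84 in SUS and -1.79, -1.85 and -1.78 in SED. SUS 1 had the lowest of these values, and the groups overlapped. The mean was -1.95 ± 0.14 in SUS and -1.81 ± 0.04 in SED (SD, n = 3 each), a difference of -0.14 with p = 0.2 in a two-sided exact permutation test. For Gria1 over Gria2, SUS averaged -0.08 and SED -0.14 on the log2 scale, and for Camk2a over Camk2b SUS_LE averaged 2.03 and SUS 1.98. Slc17a6 over Slc17a7 was lowest in SUS 1 (-5.74) and highest in SUS 2 (-4.65). Over 4 ratios and 3 comparisons the smallest of 12 exact permutation p-values was 0.2, and 0.8 after Benjamini-Hochberg adjustment. With 3 mice against 3 the smallest p that this test can give is 0.1.

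The library SUS 1 had a large part in several of these values. Without it the log2 fold change of SUS against SED was 0.16 for Nrxn2, 0.10 for Shank1, 0.07 for Dlg4, near 0 for Shank3 and 0.33 for Grik3, so that of these 5 only Grik3 was as large as with all libraries. Slc17a7 stood at 0.09, Grin1 at 0.08, Grik5 at 0.10 and Shank2 at 0.09 without SUS 1, and the lower values were -0.15 for Grin2a, -0.10 for Grm5 and -0.14 for Gria2. In SUS_LE against SUS the values without it were -0.17 for Nrxn2, -0.17 for Shank1, -0.08 for Shank3 and -0.03 for Dlg4. They were -0.08 for Grik5, -0.10 for Shank2, -0.11 for Homer1, -0.24 for Grik3, 0.16 for Grm3, 0.16 for Gria2 and 0.26 for Grik2. Without SUS 1, SUS_LE 1 and SUS_LE 3, the libraries low in Ttr, SUS_LE 2 is the only exercised library, so only effect sizes are given. The median log2 fold change of the 39 was then -0.01 in SUS against SED and 0.02 in SUS_LE against SUS. With the choroid plexus score as a covariate, 7 genes had an unadjusted p under 0.05 in SUS against SED (3 higher and 4 lower, against 9.84% of all genes). In SUS_LE against SUS there were 14 (5 higher and 9 lower, against 17.6%). In SUS_LE against SUS 4 of these passed an adjusted p of 0.05 in edgeR, Shank1, Nrxn2, Shank3 and Dlg4, all lower in SUS_LE, where 433 of all genes did (2.69%).

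Base composition moved with the same comparisons. Over all genes with a known transcript, the log2 fold change was higher where G and C made up more of the longest transcript in SUS against SED (Spearman rho 0.37 across genes) and ran the other way in SUS_LE against SUS (rho -0.40), with little trend in SUS_LE against SED (rho -0.03). Across the 39 genes rho was 0.57, -0.67 and -0.16. These genes share their libraries and are not independent. The 17 genes at or above the median of 50% G and C had a median log2 fold change of 0.15 in SUS against SED and -0.14 in SUS_LE against SUS, and the 22 below it had -0.05 and 0.06. Of the 8 genes higher in SUS at an unadjusted p under 0.05, 7 were at or above 50%, and both lower ones were below it. The exception was Dlg4, at 46.8% by its longest transcript. G and C content of shorter transcripts was not examined. Between SUS_LE and SUS mice 6 of the 7 lower genes were at or above 50% and all 3 higher ones below it. By library, the slope of log2 level on G and C content per 10 percentage points was highest in SUS 1 (0.13) and SUS 3 (0.06) and lowest in SUS_LE 3 (-0.06).

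**Figure D5:**
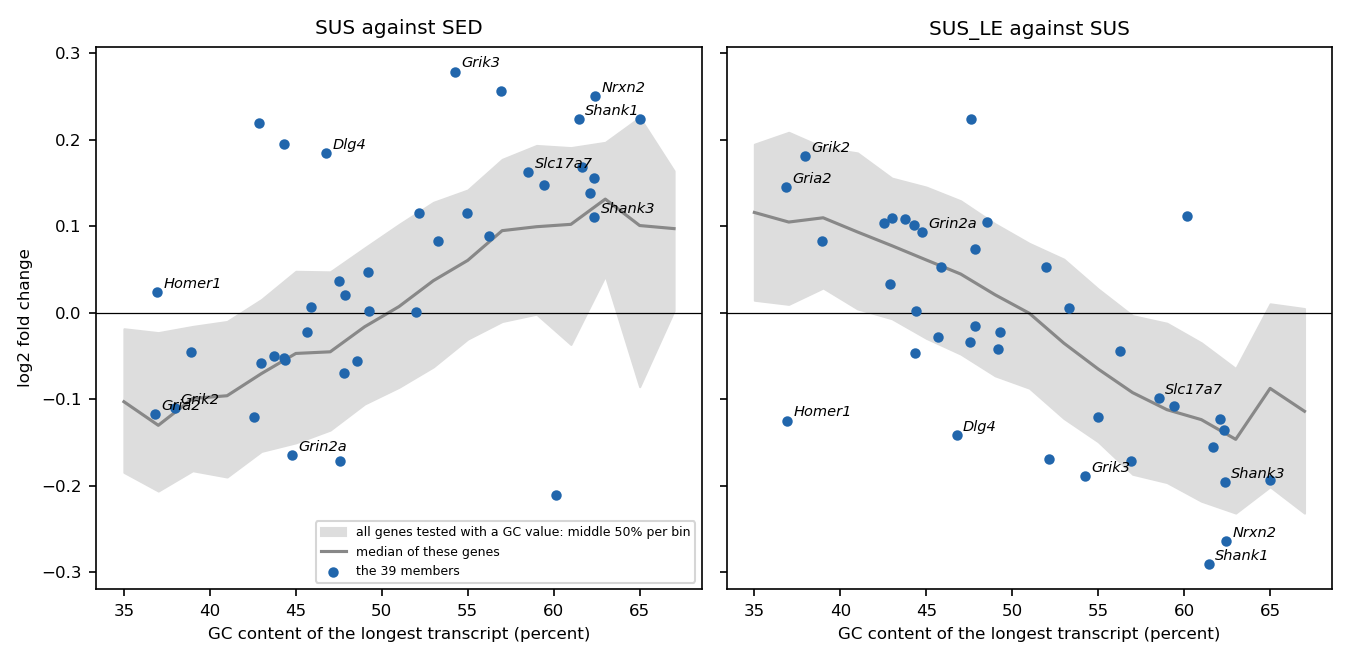
Log2 fold change against the percent G and C of the longest transcript in SUS against SED and in SUS_LE against SUS; blue points are the 39 genes, the line is the median of all genes per bin and the band their middle 50%. The blue points follow the slope of the line, with rho of 0.57 and -0.67; Homer1 lies above the line in SUS against SED and below it in SUS_LE against SUS.

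With trends in G and C content and length removed, edgeR again called 0 of 39 genes at an adjusted p of 0.05 in each comparison. At an unadjusted p under 0.05 there were 8 genes in SUS against SED, all higher in SUS, against 8.75% of all genes: Gria4, Grik3, Dlg4, Shank1, Shank2, Homer1, Nrxn2 and Nlgn1. For SUS_LE against SUS there were 5, against 9.28%: Grm3 higher, and Dlg4, Shank1, Homer1 and Nrxn2 lower. Nrxn2 had log2 fold changes of 0.19 and -0.15 in these fits, Shank1 0.18 and -0.18, and Homer1 0.16 and -0.26. Dlg4 had 0.26 and -0.19, values that rest on the G and C content of its longest transcript. Other values came near 0 or changed sign in SUS against SED: Grin2a stood at -0.04, Grm5 at -0.01, Gria2 at 0.05 and Grik2 at 0.04. Slc17a7, Grik5 and Grin1 stood at 0.07, 0.07 and 0.07. With these trends removed, SUS_LE against SUS gave 0.01 for Gria2, 0.05 for Grik2, -0.02 for Grik5, -0.08 for Shank3, -0.06 for Shank2 and -0.14 for Grik3, none at an unadjusted p under 0.05.

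Markers of cell types moved with the groups as well. In SUS against SED 9 of 11 neuronal markers had a log2 fold change above 0, with a median of 0.16, and their summed level was 8226 to 9054 CPM in SUS and 8320 to 8453 CPM in SED. Of 7 CA1 markers 6 were above 0 (median 0.17), of 9 dentate granule markers 0 (median -0.16), of 7 CA3 markers 1 (median -0.14) and of 12 oligodendrocyte markers 0 (median -0.18). Between SUS_LE and SUS 5 of 11 neuronal (median -0.08), 3 of 7 CA1 (median -0.10), 9 of 9 dentate (median 0.18) and 11 of 12 oligodendrocyte markers (median 0.13) were above 0. The dentate sum was 350.5 to 409.6 CPM in SUS_LE, 298 to 368 CPM in SUS and 334 to 405 CPM in SED. The 16 choroid plexus markers summed to 255 to 2359 CPM in SUS_LE, 164 to 8856 CPM in SUS and 4566 to 6621 CPM in SED. Of 12 interneuron markers 9 and 5 were above 0 in SUS against SED and SUS_LE against SUS, of 12 astrocyte markers 6 and 8, of 10 microglial markers 8 and 6, and of 10 endothelial markers 2 and 9. Lists of neighbouring tissue had 8 and 4 of 11 striatal markers above 0 (medians 0.31 and -0.06), 8 and 3 of 12 cortical and amygdalar markers (0.14 and -0.07), 5 and 6 of 11 thalamic markers (-0.07 and 0.08) and 1 and 9 of 10 meningeal fibroblast markers (-0.15 and 0.26). Of 9 oligodendrocyte precursor markers 4 and 4 were above 0 (-0.09 and -0.02). No marker on these lists was at 0 in every library. The part of neuronal, glial and neighbouring-tissue markers in the values of the 39 genes was not tested.

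Other genes of the pathway were read from lists of glutamatergic synapse genes outside the 39, and none passed an adjusted p of 0.05 in edgeR in any comparison. In SUS against SED, at an unadjusted p under 0.05, the list of AMPA and kainate receptor auxiliary subunits had 5 of 19 genes higher and 1 lower, other postsynaptic density proteins 6 of 26 higher and 5 lower, other synaptic kinases, phosphatases and calmodulin 5 of 27 higher and 0 lower, other adhesion proteins 2 of 30 higher and 2 lower, and glutamate uptake and metabolism 1 of 14 higher and 3 lower, where 6.83% of all genes were higher and 6.26% lower. Of 5 other glutamate receptor subunits 3 were tested and 0 reached that level. In SUS_LE against SUS the same lists had 1 higher and 1 lower, 3 and 6, 0 and 1, 4 and 3, and 4 and 0, against 7.20% and 6.49% of all genes. In SUS_LE against SED they had 1 higher and 0 lower, 0 and 1, 2 and 0, 1 and 1, and 1 and 1, against 2.79% and 3.86%.

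The smallest p-values on these lists belonged to genes of several roles, given as means ± SD of 3 mice. Cacng7, an AMPA receptor auxiliary subunit, averaged 103 ± 8.46 CPM in SUS and 85.7 ± 5.69 CPM in SED (log2 fold change 0.27, SE 0.07, unadjusted p = 0.000622), and Neto1, an auxiliary subunit of kainate and NMDA receptors, 269 ± 9.82 CPM in SUS and 302 ± 21.9 CPM in SED (log2 fold change -0.17, SE 0.06, unadjusted p = 0.0125). Lrrc7, the postsynaptic protein densin, averaged 359.9 ± 16.8 CPM in SUS and 418 ± 17.1 CPM in SED (log2 fold change -0.22, SE 0.05, unadjusted p = 0.000620), and 417 ± 7.27 CPM in SUS_LE and 359.9 ± 16.8 CPM in SUS (log2 fold change 0.21, SE 0.05, unadjusted p = 0.000754). Flrt3, a postsynaptic ligand of latrophilins, averaged 51.5 ± 1.86 CPM in SUS_LE and 41.2 ± 2.72 CPM in SUS (log2 fold change 0.32, SE 0.07, unadjusted p = 0.000300). Slc38a2, a glutamine transporter, averaged 72.2 ± 6.94 CPM in SUS and 88.3 ± 1.41 CPM in SED (log2 fold change -0.29, SE 0.07, unadjusted p = 0.000791), and Slc1a2, the main glutamate transporter of astrocytes, 3595 ± 93.1 CPM in SUS and 4003 ± 114 CPM in SED (log2 fold change -0.16, SE 0.06, unadjusted p = 0.0151). Camk2n1, an inhibitor of CaMKII, averaged 534 ± 48.04 CPM in SUS and 468 ± 21.96 CPM in SED (log2 fold change 0.19, SE 0.06, unadjusted p = 0.00795). In SUS_LE against SED, Lin7c, a scaffold partner of CASK, averaged 109.8 ± 2.97 CPM in SUS_LE and 125 ± 6.05 CPM in SED (log2 fold change -0.19, SE 0.05, unadjusted p = 0.00176). Its level in SUS was similar to that in SUS_LE, 112 ± 2.04 CPM (log2 fold change against SED -0.17, SE 0.05, unadjusted p = 0.00506).

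Overlap with other genes limits some of these counts. In the GENCODE annotation of GRCm38, 20 of the 39 genes share exon sequence with another gene, 13 of them with a gene on the opposite strand. The strand setting of the counting is not given in the sources used here, so reads of such partners cannot be told apart. Partners in the files had few counts for Nrxn2 (Slc22a12, at most 3 counts in a library, against at least 2940 for Nrxn2), Shank1 (1700008O03Rik, at most 14) and Grin1 (Grin1os, at most 9). They had more beside Homer3 (Ddx49, at most 265 counts, against at least 311) and Grin2d (Gm45441, at most 119, against at least 166).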

How the data were processed

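Per the labels, RNAiso Plus was the extraction reagent and CORALL RNA-seq V2 the library kit. Each library has 1 file of counts by gene symbol, deposited by the authors and made with fastp, STAR and Salmon on GRCm39, per the submitters' processing notes. The annotation, the strand setting and the use of molecular identifiers are not given in the sources used here. Column headers number the exercised libraries differently from the labels, whose numbers are used. Labels name each library as a separate mouse and give all 1 batch number. Libraries of a group differed by more than counting noise.

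Fits were run in R 4.3.3 with DESeq2 1.42.0, limma 3.58.1 and edgeR 4.0.16. All limma fits used voom with quality weights per library. The filterByExpr step of edgeR left 16106 genes, which hold 99.9% of counts, and TMM factors scaled the libraries (14172344 to 15582304 counts). A robust quasi-likelihood fit of edgeR over all 9 libraries had group as its only term (common biological coefficient of variation 0.0845), and p-values were adjusted by Benjamini-Hochberg over all genes, with a threshold of 0.05. On simulated data the fit recovered 30%, 78%, 98% and 100% of 50 genes changed 1.25-, 1.5-, 2- and 4-fold in SUS against SED, of 16106 genes. Changed genes had a mean of at least 100 counts, and the 1.25- and 2-fold changes were raised, the 1.5- and 4-fold ones lowered. Simulated counts were drawn independently for each gene, with no difference in choroid plexus RNA and no G and C trend between libraries. These shares are therefore not the power of the fit in these mice. Ratios used counts plus 0.5. Transcript length and G and C content came from GENCODE transcripts of GRCm38, matched by symbol for 91.1% of genes tested and used for trends and lengths only.

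The 39 genes and all other lists were chosen with earlier results of these data known. Values in every library are given for genes at an unadjusted p under 0.05 in any test, for the first gene of each family per length and for the genes of the 4 ratios; of each other list, genes among the 2 with the smallest p in a comparison are named. A gene on these lists is not reported here. Alternatives were other scaling, filters and tools, the replicate block, removal of G and C and length trends, a choroid plexus covariate, the compared groups alone, and each library left out. The labels do not say whether the replicate numbers pair mice, and they were not taken as pairs. The fit that joins DESeq2 with trend removal was chosen after seeing the data.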

Additional observations from a re-analysis of the deposited data

How the results depend on the processing

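With edgeR as described, 0 of 39 genes passed the threshold in SUS against SED, in SUS_LE against SUS, in SUS_LE against SED and in the test for any difference. In SUS against SED the count was 2 with no filter on low counts (Grik3 and Nrxn2; 1.10% of all genes), 1 with DESeq2 (Nrxn2; 3.25%) and 2 with DESeq2 and trends in G and C content and length removed (Shank1 and Nrxn2; 4.56%; chosen after seeing the data). In SUS_LE against SUS it was 3 with no filter (Shank1, Shank3 and Nrxn2; 1.59%), 2 with DESeq2 (3.57%) and 2 with DESeq2 without independent filtering (0.447%; Shank1 and Nrxn2 both times), 4 with the choroid plexus score as a covariate (Dlg4, Shank1, Shank3 and Nrxn2; 2.69%), and 1 with DESeq2 and trends removed (Homer1; 0.908%). For any difference it was 3 with no filter (2.57%), 2 with DESeq2 (4.65%), 2 with DESeq2 without independent filtering (0.708%) and 3 with the covariate (1.22%). DESeq2 shares are of genes with an adjusted p. With independent filtering, 31 of the 39 genes had one in SUS against SED, 31 in SUS_LE against SUS and 29 for any difference. With trends removed as well, 20 had one in SUS against SED and 27 in SUS_LE against SUS. The cause of the differing counts was not tested. Leaving out each library in turn gave 0 to 1 genes in SUS against SED, 0 to 1 in SUS_LE against SUS (Nrxn2 without SUS 2 in both, with 0.165% and 1.12% of all genes), and 0 to 0 in the other tests. Without a filter 26992 genes were tested. In SUS_LE against SED all settings gave 0 of 39, against 0% to 1.52% of all genes. The highest share, 239 genes, came with only the 2 groups compared.

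At an unadjusted p under 0.05, the count of 10 in SUS against SED ran from 4 (without SED 1, against 9.05% of all genes) to 14 (limma, 11.9%). That in SUS_LE against SUS ran from 3 (DESeq2 with trends removed, 6.53%) to 14 (without SUS 2, 15.8%, and with the choroid plexus covariate, 17.6%). For SUS_LE against SED the count of 0 rose to at most 4, with the choroid plexus covariate (6.61%). Deviations from the group mean in mice with the same label number correlated with r of -0.12, 0.06 and -0.10 in SUS against SED. For SUS_LE against SUS r was 0.18, 0.18 and -0.09. These values cannot decide whether mice were paired, as column headers number the exercised libraries differently. The numbers were not taken as pairs. The replicate block gave 0 of 39 genes at the threshold in each test, against at most 0.00621% of all genes. At an unadjusted p under 0.05 it gave 9, 10, 0 and 7, against 12.6%, 13.1%, 6.00% and 12.5%. Each of the 39 genes had over 100 counts in every library, and the median SE of their log2 fold changes was 0.07.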
